A study of Drosophila melanogaster with 4 samples.

Results

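This report describes the messenger RNA of 42 enzyme genes of central carbon metabolism in the testes of Drosophila melanogaster, compared between wild type (WT) males and males with the sws1 allele of swiss cheese. The 42 genes are 17 genes of glycolysis and lactate formation, 3 of the pyruvate dehydrogenase complex and 22 grouped under the tricarboxylic acid (TCA) cycle. This last group includes the NADP-dependent Idh and the cytosolic Mdh1. They were listed by gene symbol for their place in these pathways, and all 42 were found among the 13771 genes with counts. Of the members, 32 are the canonical genes of their step and 10 are paralogs, that is duplicated copies, named for the testis or known as testis-biased copies (Hex-t1, Hex-t2, Ald2, Pglym87, mAcon2, SdhAL, SdhBL, Fum2, Fum3 and Fum4).

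Total RNA was taken from dissected, pooled testes of 5-day-old flies, freed of ribosomal RNA and sequenced with 2 libraries for each genotype. The WT group was the Canton S strain, and the second group was flies with the sws1 allele, a mutation of swiss cheese, the fly homolog of neuropathy target esterase, a membrane lysophospholipase. Both groups were kept on the same standard food and neither received a treatment. Per the study's methods the replicates are biological ones, each made from its own pool of testes. Genotype and strain background cannot be told apart in these libraries.

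Glycolysis splits a hexose into pyruvate with a small yield of ATP, the pyruvate dehydrogenase complex turns pyruvate into acetyl-CoA inside mitochondria, and the TCA cycle oxidises acetyl-CoA and feeds electrons to the respiratory chain. The fly genome holds, for many of these steps, a second gene that is transcribed mainly in the male germline beside the gene used in other tissues. Spermatids elongate around mitochondria that have fused into paired derivatives, and the energy supply of the growing tail is one of the settings in which these germline enzymes are studied.

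The libraries held 4498060 and 2692475 counts in WT against 2364636 and 2218335 in sws1, and the 42 genes took between 0.766% and 0.796% of each. Counts of all transcripts of a gene were added and levels are given as CPM (counts scaled to the library size after TMM normalization), divided by the length of the gene's merged exons in kilobases where genes are compared with each other (CPM per kb). The transcript of sws itself had 662 and 500 counts in WT against 166 and 179 in sws1, a log2 fold change of -1.28 ± 0.15 (standard error, SE) with an adjusted p of 2.12e-06 in edgeR. In the marker lists, 10 of 14 spermatid genes were lower in sws1 with none higher, and the list summed to 18027 and 17481 CPM in WT against 11763 and 12643 in sws1. Markers of the accessory gland, an organ attached to the male tract, summed to 63.2 and 74.0 CPM in WT against 1329 and 547 in sws1, with 8 of 12 tested genes called higher. Fat body markers summed to 502 and 462 CPM in WT against 832 and 748 in sws1. This sum was mostly apolpp, at 335 and 292 CPM in WT against 650.02 and 583 in sws1, and mtd, at 158 and 160.1 against 176 and 147, while 6 of the 9 listed genes were too low to be tested. Of the other marker lists, spermatogonia had 1 of 5 genes called lower, spermatocytes 4 lower and 3 higher of 16, cyst cells 2 of 5 higher, ejaculatory duct and bulb 3 of 3 higher, muscle 3 of 12 higher and hemocytes 1 of 4 higher. Over all 9634 genes tested, 11.5% were called lower and 9.38% higher, by the thresholds given below. In tissue libraries such as these, fewer cells of a type and less RNA per cell cannot be told apart.

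In WT testes the mean level of the 42 genes ran from 4.67 to 519 CPM per kb. Pglym87, the testis paralog of phosphoglycerate mutase, was the most abundant at 508 and 529 CPM per kb in the WT libraries, which placed it at the 97.4 percentile of the 9634 genes tested. Tpi (triose phosphate isomerase) followed with 315 and 297 CPM per kb, Idh3b (a subunit of the NAD-dependent isocitrate dehydrogenase) with 287 and 295, ScsbetaA (the beta subunit of the ADP-forming succinyl-CoA synthetase) with 265 and 295, and Fum3 (a fumarase paralog) with 252 and 261. The WT libraries of Idh3b and ScsbetaA overlapped, and the gaps from Tpi to Idh3b and from ScsbetaA to Fum3 were narrow beside the range within a gene, so the order below Pglym87 is not resolved. The least abundant member was Hex-C, a canonical hexokinase, at 4.88 and 4.46 CPM per kb.

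**Figure D1:**
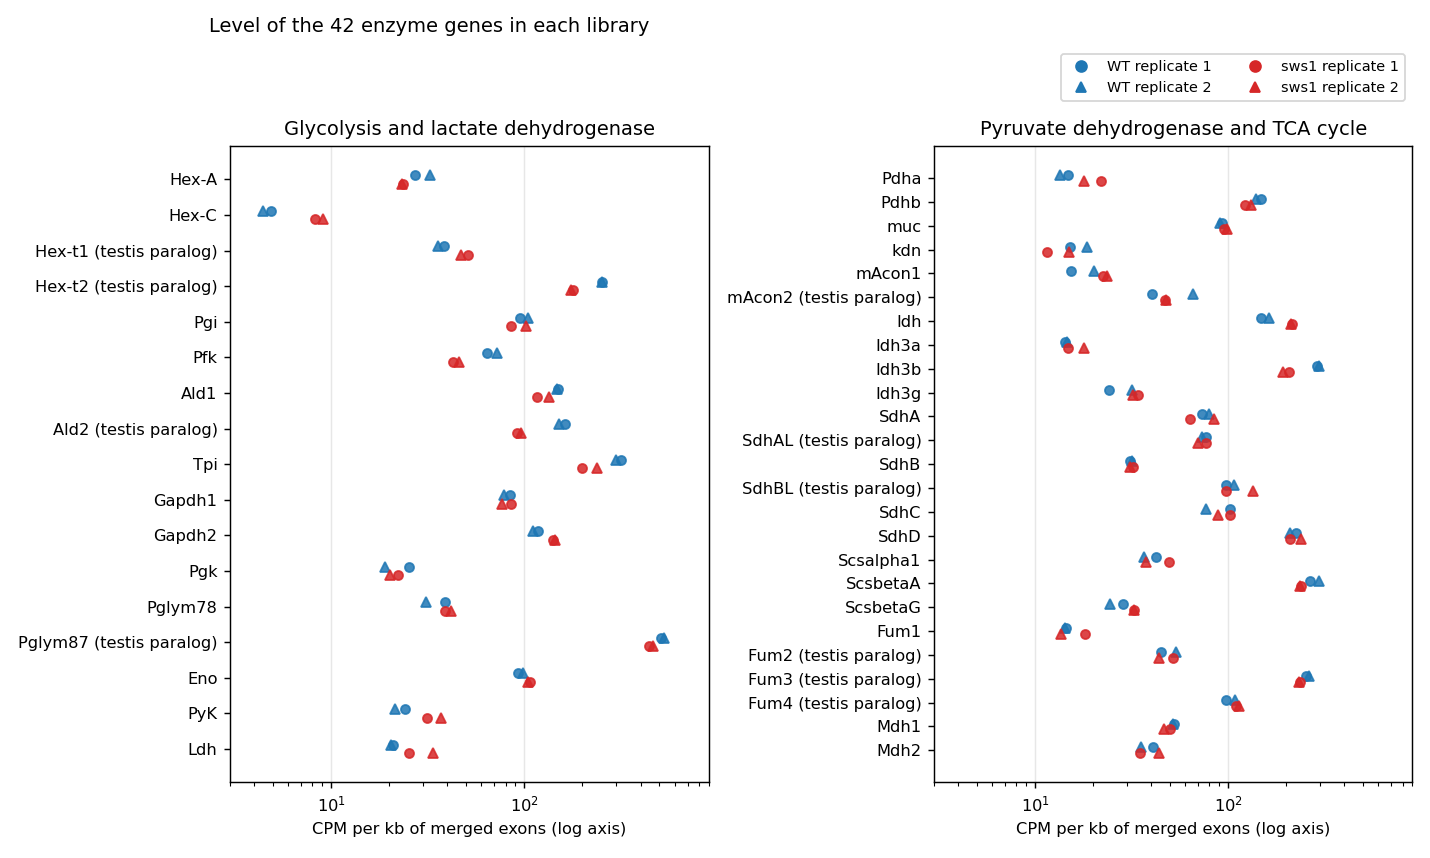
Level of each of the 42 enzyme genes in each library, in CPM per kb of merged exons on a log axis. Circles and triangles are replicates 1 and 2, blue is WT and red is sws1. The genotypes lie close together for most genes, from Hex-C at the left end of the scale to Pglym87 at 508 and 529 in WT.

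The question of the comparison was whether transcripts of these enzymes differ between sws1 and WT testes. A gene was called when the edgeR quasi-likelihood test gave a Benjamini-Hochberg adjusted p under 0.05 over all 9634 genes tested together with an absolute log2 fold change above 0.3. All 42 members passed the filter on low counts. In sws1, 5 members were called lower, 4 were called higher and 33 were not called. Over all genes tested 11.5% were called lower and 9.38% higher, and the members stood at 11.9% and 9.52%, so the shares called were close to those of all genes. The median log2 fold change of the members was 0.03, against 0.02 over all genes tested. The number of higher calls depended on the scaling, the tool and single libraries, while the number of lower calls was 5 or 6 under each of these settings. With upper-quartile factors, which raised the median of all genes to 0.07, 5 members were called lower and 7 higher (9.74% and 11.5% of all genes). With DESeq2 in place of edgeR 5 were called lower and 1 higher (5.79% and 3.33%). Without WT replicate 1 a single member was called higher (6.4% of all genes), without WT replicate 2 it was 2 (8.05%), without sws1 replicate 1 it was 4 (7.74%) and without sws1 replicate 2 it was 2 (8.31%).

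By pathway, 4 of 17 glycolytic genes were called lower (23.5%) and 3 higher (17.6%). None of 3 pyruvate dehydrogenase genes was called, and in the TCA cycle 1 of 22 was called lower and 1 higher (4.55% each). Over all genes tested the shares were 11.5% lower and 9.38% higher. The CPM of both sws1 libraries lay below both WT libraries for 13 members and above them for 14, where 28.9% and 31.3% of all tested genes did so. The canonical genes counted 3 lower (9.38%) and 4 higher (12.5%) calls of 32, with a median log2 fold change of 0.06. The testis paralogs counted 2 lower (20%) and none higher of 10, with a median of -0.09. None of the 9 called members shares annotated exon bases with another gene. Eno, Ald1, Idh3g, SdhB and SdhD share between 124 and 362 exon bases with a gene on the opposite strand, and if strand was not used in the counting the reads of such pairs cannot be told apart.

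**Figure D2:**
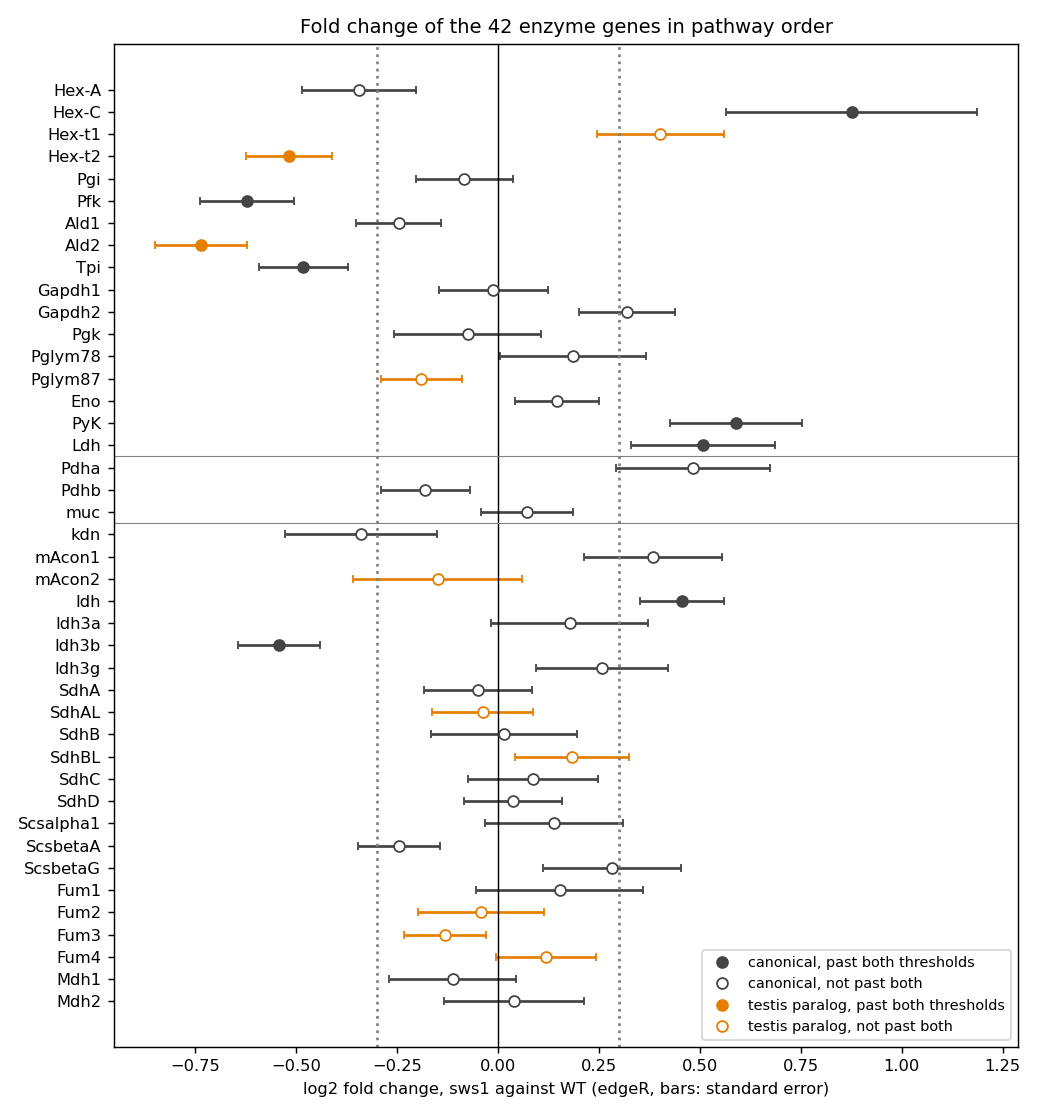
Log2 fold change of each of the 42 genes, sws1 against WT, in pathway order from hexokinase to malate dehydrogenase, with bars for the standard error of the edgeR fit over 2 libraries per genotype. Filled symbols are past both thresholds, orange symbols are testis paralogs and dotted lines mark a log2 fold change of 0.3 in each direction. The 5 lower genes are Hex-t2, Pfk, Ald2, Tpi and Idh3b, and the 4 higher ones are Hex-C, PyK, Ldh and Idh.

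Hexokinases phosphorylate glucose at the entry to glycolysis, and 4 genes were measured for this step. Hex-t2 (chromosome 3R, 26450671 to 26452327 on the forward strand of the BDGP6.54 assembly) had 1681 and 1010 counts in WT against 699 and 626 in sws1, or 252 and 252 CPM per kb against 178 and 174. Both sws1 libraries were below both WT libraries, with a log2 fold change of -0.52 ± 0.11 (SE, n = 2 libraries per genotype; edgeR adjusted p of 0.00112). Hex-t1, its neighbour on 3R from 26449079 to 26450585, stood at 38.4 and 35.6 CPM per kb in WT and at 51.1 and 46.9 in sws1. Its sws1 libraries were both above the WT libraries, but its log2 fold change of 0.40 ± 0.16 had an edgeR adjusted p of 0.0756. Hex-t1 did pass with upper-quartile factors and with the replicate number as a block.

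The canonical Hex-A was at 27.3 and 32.3 CPM per kb in WT against 23.5 and 23.3 in sws1, with a log2 fold change of -0.34 ± 0.14 that was not called (edgeR adjusted p of 0.0903). Hex-C (2R, 15218837 to 15220329, reverse strand) had only 31 and 17 counts in WT against 31 and 31 in sws1. On the scaled level it stood at 4.88 and 4.46 CPM per kb in WT against 8.29 and 9.05 in sws1, a log2 fold change of 0.88 ± 0.31 with an edgeR adjusted p of 0.0483. This call at low counts was lost in 8 of 11 alternative analyses, among them each of the 4 that left out a library, with edgeR adjusted p between 0.0812 (without sws1 replicate 1) and 0.165 (without WT replicate 2). Within hexokinase, Hex-t2 took 78.1% and 77.7% of the length-scaled counts in WT and 68.2% and 68.7% in sws1. Hex-t1 took 11.9% and 10.97% in WT and 19.6% and 18.5% in sws1. The ratio of Hex-t2 to Hex-t1 was thus 6.56 and 7.08 in WT and 3.48 and 3.71 in sws1, without overlap between the genotypes; an exact two-sided permutation test gave p = 0.333, the smallest that 2 libraries against 2 allow.

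The next steps rearrange and split the hexose. Pgi, the phosphoglucose isomerase, stood at 94.9 and 104 CPM per kb in WT and 85.5 and 102 in sws1, with overlapping libraries. Pfk, the phosphofructokinase that commits sugar to glycolysis (2R, 10109740 to 10117457, forward strand), had 1196 and 806 counts in WT against 468 and 460 in sws1. Its 64.2 and 72.1 CPM per kb in WT fell to 42.7 and 45.8 in sws1, a log2 fold change of -0.62 ± 0.12 (edgeR adjusted p of 0.000483).

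Aldolase cleaves fructose 1,6-bisphosphate into triose phosphates. Its testis paralog Ald2 (3R, 26414088 to 26416192, forward strand) showed the largest decrease among the members, from 1363 and 762 counts in WT to 455 and 436 in sws1. Its level went from 162 and 150.4 CPM per kb to 91.6 and 95.8, a log2 fold change of -0.74 ± 0.11 (edgeR adjusted p of 6.29e-05). Ald1, the canonical aldolase, was at 149 and 148 CPM per kb in WT and at 116 and 135 in sws1, which did not overlap, but its log2 fold change of -0.25 ± 0.10 was not called (edgeR adjusted p of 0.1004). Ald2 therefore took 52.0% and 50.3% of the length-scaled aldolase counts in WT and 44.0% and 41.6% in sws1. The WT share depends on the length used: it averaged 51.2% with merged exons and 33.0% when each count was divided by its own transcript's length.

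Triose phosphate isomerase, Tpi (3R, 30132981 to 30134599, reverse strand), interconverts the triose phosphates made by aldolase. Tpi had 2089 and 1181 counts in WT against 781 and 851 in sws1, or 315 and 297 CPM per kb against 200.03 and 238, a log2 fold change of -0.48 ± 0.11 (edgeR adjusted p of 0.00294).

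Beside these 5 lower genes, including Idh3b of the TCA cycle described below, the spermatid markers summed to 18027 and 17481 CPM in WT against 11763 and 12643 in sws1, and their part in the result was not tested. Each of the 5 genes kept its call in 10 of 11 alternatives. The exception was the analysis of single transcripts, in which 0 of 14158 transcripts tested passed the adjusted threshold in either direction while 2414 (17.1%) had an unadjusted p under 0.05.

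Among the 42 members, no gene of the later steps of glycolysis was called lower, although paralogs on a further list were (CG9961 and CG7362, described below). Gapdh1 and Gapdh2 encode glyceraldehyde-3-phosphate dehydrogenase, and Gapdh1 was at 84.8 and 78.3 CPM per kb in WT and 85.7 and 76.3 in sws1, with overlap. Gapdh2 was at 118 and 111 CPM per kb in WT and 141 and 145 in sws1, without overlap, with a log2 fold change of 0.32 ± 0.12 that was not called (edgeR adjusted p of 0.0632) but passed with upper-quartile factors. Pgk, the phosphoglycerate kinase, overlapped between the genotypes at 25.4 and 18.9 against 22.3 and 20.2 CPM per kb.

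For phosphoglycerate mutase, Pglym87 was at 508 and 529 CPM per kb in WT and 444 and 466 in sws1, and the log2 fold change of -0.19 ± 0.10 was not called. The canonical Pglym78 was at 38.9 and 31.0 CPM per kb in WT and 38.6 and 41.8 in sws1. Pglym87 thus held 92.9% and 94.5% of the step's length-scaled counts in WT and 92.0% and 91.8% in sws1. Enolase, Eno, was at 93.3 and 98.9 CPM per kb in WT and 108 and 105 in sws1 and was not called, with a log2 fold change of 0.15 ± 0.10.

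At the end of the pathway, PyK and Ldh were called higher. PyK, the pyruvate kinase (3R, 22367536 to 22372746, forward strand), had 229 and 122 counts in WT against 177 and 191 in sws1, or 24.0 and 21.3 CPM per kb against 31.5 and 37.1. Its log2 fold change was 0.59 ± 0.16 (edgeR adjusted p of 0.0118), and the call was lost with DESeq2 and in single transcripts. It was also lost without WT replicate 2, at an edgeR adjusted p of 0.0846, and without sws1 replicate 2, at 0.104. Ldh, the lactate dehydrogenase (3L, 6259105 to 6262694, reverse strand), had 173 and 101 counts in WT against 123 and 150 in sws1, or 20.9 and 20.4 CPM per kb against 25.3 and 33.7. Its log2 fold change of 0.51 ± 0.18 had an edgeR adjusted p of 0.0470 and was lost in 7 of 11 alternatives. Without sws1 replicate 2 it was 0.29 with an edgeR adjusted p of 0.425, and the call was also lost without WT replicate 1 (0.121) and without WT replicate 2 (0.133). The accessory gland markers summed to 63.2 and 74.0 CPM in WT against 1329 and 547 in sws1, and their part in these higher calls was not tested.

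The pyruvate dehydrogenase complex was measured through 3 members. Pdha, the alpha subunit of its first enzyme, was at 14.9 and 13.5 CPM per kb in WT and 21.9 and 17.8 in sws1, a log2 fold change of 0.48 ± 0.19 that was not called (edgeR adjusted p of 0.0768) but passed with upper-quartile factors. Pdhb, the beta subunit, was at 149 and 140 CPM per kb in WT and 123 and 132 in sws1, with a log2 fold change of -0.18 ± 0.11. The acetyltransferase muc was at 92.7 and 91.0 CPM per kb in WT and 95.1 and 98.2 in sws1 and was not called. The alpha and beta subunits assemble into 1 enzyme, and the Pdhb level per length was 9.997 and 10.4 times that of Pdha in WT and 5.60 and 7.40 times in sws1. Most of the alpha subunit counts came from a paralog that is not among the 42 genes, CG7024, which with Pdha is described below.

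Among the genes grouped under the TCA cycle, isocitrate dehydrogenases held both calls, the NAD-dependent one lower and the NADP-dependent one higher. Idh3b (3R, 22016391 to 22019382, reverse strand) had 2518 and 1554 counts in WT against 1065 and 913 in sws1. Its level fell from 287 and 295 CPM per kb to 206 and 193, a log2 fold change of -0.54 ± 0.10 (edgeR adjusted p of 0.000480). The other subunits of the same NAD-dependent enzyme were not called: Idh3a was at 14.3 and 14.7 CPM per kb in WT and 14.8 and 18.0 in sws1, and Idh3g was at 24.1 and 31.8 in WT and 33.9 and 32.3 in sws1. The level of Idh3b was 20.1 and 20.1 times that of Idh3a in WT and 14.0 and 10.7 times in sws1. This ratio leaves out CG3483 and CG32026, paralogs of the NAD-dependent subunits on a further list, neither of which was called. Together they held 54.9% and 54.4% of the length-scaled counts of these subunits in WT and 57.5% and 61.0% in sws1.

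Idh (3L, 8356404 to 8360906, reverse strand), the NADP-dependent isocitrate dehydrogenase, had 1524 and 1012 counts in WT against 1298 and 1181 in sws1. Its level rose from 147 and 163 CPM per kb to 213 and 212, a log2 fold change of 0.46 ± 0.10 (edgeR adjusted p of 0.00295). Of the 4 higher calls it was the only one that DESeq2 also made, and it was lost without WT replicate 1, where the log2 fold change was 0.38 with an edgeR adjusted p of 0.0707, and in single transcripts. In level per length Idh was 0.512 and 0.551 times Idh3b in WT and 1.03 and 1.09 times in sws1, with no overlap and an exact two-sided permutation p of 0.333, the smallest the design allows.

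None of the 6 testis paralogs of the TCA cycle was called, and their log2 fold changes lay between -0.15 and 0.18. Aconitase isomerises citrate: its paralog mAcon2 was at 40.5 and 65.9 CPM per kb in WT and 47.0 and 47.9 in sws1, so that the sws1 libraries lay between those of WT. The canonical mAcon1 was at 15.3 and 20.3 CPM per kb in WT and 22.5 and 23.5 in sws1, a log2 fold change of 0.38 ± 0.17 that was not called (edgeR adjusted p of 0.116). The share of mAcon2 in the length-scaled counts was 72.6% and 76.4% in WT and 67.6% and 67.1% in sws1.

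Succinate dehydrogenase oxidises succinate and is also complex II of the respiratory chain. Its flavoprotein gene SdhA was at 73.3 and 79.8 CPM per kb in WT and 63.6 and 84.3 in sws1, and the paralog SdhAL was at 77.1 and 73.4 in WT and 77.1 and 69.6 in sws1. The iron-sulfur gene SdhB was at 30.8 and 31.8 CPM per kb in WT and 32.1 and 31.1 in sws1, and the paralog SdhBL was at 97.4 and 108 in WT and 97.7 and 135 in sws1. All 4 genes overlapped between the genotypes, and so did the membrane anchors SdhC and SdhD. SdhAL and SdhA were thus present at about equal levels, with SdhAL at 51.3% and 47.9% in WT and 54.8% and 45.2% in sws1. SdhBL, in contrast, held 76.0% and 77.2% of its step in WT and 75.3% and 81.3% in sws1. SdhCL, a paralog of SdhC on a further list, held 79.6% and 84.8% of the SdhC step in WT. Its share was 74.8% and 76.6% in sws1, and SdhCL was called lower. SdhC with SdhCL went from 501 and 504 CPM per kb in WT to 407 and 380 in sws1, without overlap. That total had an exact two-sided permutation p of 0.333.

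Fumarase hydrates fumarate to malate, and its testis paralogs made up 96.5% and 96.7% of the length-scaled counts in WT and 95.6% and 96.6% in sws1. Fum3 was at 252 and 261 CPM per kb in WT and 236 and 232 in sws1. Fum4 was at 97.2 and 109 CPM per kb in WT and 109 and 114 in sws1, and Fum2 at 45.1 and 53.9 in WT and 51.8 and 43.7 in sws1. The canonical Fum1 was at 14.4 and 14.3 CPM per kb in WT and 18.2 and 13.6 in sws1. None of the 4 fumarase genes was called, and the libraries of Fum1 and Fum2 overlapped between the genotypes. Fum1 and Fum2 lie next to each other on the X chromosome and share 79 exon bases on the same strand.

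The other genes grouped under the cycle were not called. Citrate synthase (kdn) was at 15.2 and 18.5 CPM per kb in WT and 11.5 and 14.9 in sws1. ScsbetaA, the ADP-forming succinyl-CoA synthetase subunit, was at 265 and 295 CPM per kb in WT and 237 and 234 in sws1, with a log2 fold change of -0.24 ± 0.10 (edgeR adjusted p of 0.0926). The GDP-forming subunit ScsbetaG and the alpha subunit Scsalpha1 had log2 fold changes of 0.28 and 0.14. The malate dehydrogenases, the cytosolic Mdh1 and the mitochondrial Mdh2, had log2 fold changes of -0.11 and 0.04. Their adjusted p in edgeR were 0.661 and 0.900.

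**Figure D3:**
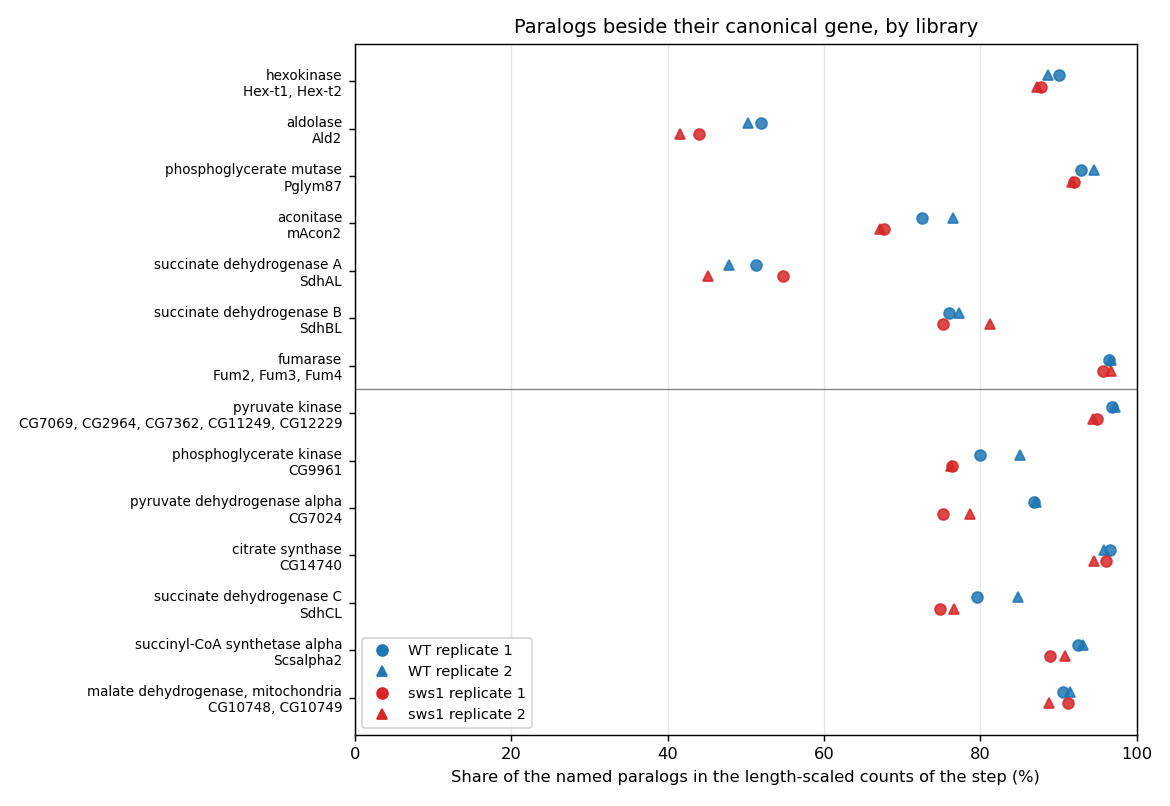
Share of the named paralogs in the length-scaled counts of their enzyme step in each library, in percent, with the canonical gene making up the rest. Rows above the line use the 42 genes and rows below it add paralogs from the further lists. Among the 7 upper rows the genotypes are farthest apart for aldolase, at 52.0% and 50.3% in WT and 44.0% and 41.6% in sws1.

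Of the 7 steps with a testis paralog among the 42 genes, the libraries of the genotypes did not overlap in the paralog share for hexokinase, aldolase, phosphoglycerate mutase and aconitase, and in each of these the share was lower in sws1. The shares overlapped for both succinate dehydrogenase subunits and for fumarase. For the CPM of single genes, 28.9% of all tested genes lay lower in sws1 without overlap and 31.3% higher. No such proportion was computed for the shares of other gene groups. The difference in mean share was -8.35 percentage points for aldolase, -7.14 for aconitase, -1.82 for hexokinase and -1.81 for phosphoglycerate mutase, each with an exact two-sided permutation p of 0.333, the smallest possible with 2 libraries against 2. For hexokinase the separation depended on the length scaling: on raw counts the paralog share was 79.0% and 76.2% in WT against 76.4% and 75.8% in sws1, which overlapped (exact two-sided permutation p of 0.667). The shares are a description, since the reads of similar paralogs could be assigned to either copy and the identity of their sequences was not computed here.

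The genes around these pathways were counted on 3 further lists. Of 20 tested genes of sugar supply and gluconeogenesis, 3 were called lower and 7 higher, against 11.5% and 9.38% of all genes. The higher genes included fbp, the fructose-1,6-bisphosphatase of gluconeogenesis, with 17 and 11 counts in WT against 44 and 35 in sws1 and a log2 fold change of 1.98 ± 0.33. Pepck1, the phosphoenolpyruvate carboxykinase of gluconeogenesis, had 369 and 235 counts in WT against 579 and 476 in sws1. Its log2 fold change was 1.30 ± 0.13. In both genes the scaled level of each sws1 library was above that of each WT library.

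Tps1, which makes the blood sugar trehalose, rose by a log2 fold change of 1.10 ± 0.16, and Pgm1, the phosphoglucomutase, by 1.002 ± 0.18. Tret1-1, a trehalose transporter, was higher by 0.86 ± 0.23, and Pfrx, the bifunctional enzyme that sets fructose 2,6-bisphosphate, by 0.67 ± 0.20. Gpdh3, a glycerol-3-phosphate dehydrogenase paralog, was lower by a log2 fold change of -0.63 ± 0.12. The other called genes of this list, outside the naming rule, were Treh (-0.52 ± 0.12), Gpo2 (-0.47 ± 0.13) and PCB (0.42 ± 0.14). Of these, DESeq2 called only Treh. DESeq2 called 4 of the 7 higher genes (fbp, Pepck1, Tps1 and Pgm1), and edgeR called 4 without sws1 replicate 1. Tret1-1 lost its call without WT replicate 1 (edgeR adjusted p of 0.124) and without sws1 replicate 1 (0.0707). Pfrx lost it without WT replicate 2 (0.109) and without sws1 replicate 1 (0.105). The fat body, a storage tissue, is a site of gluconeogenesis and trehalose synthesis, and its markers summed to 502 and 462 CPM in WT against 832 and 748 in sws1, a rise that lay in apolpp, the only one of 3 tested that was called, and their part in these calls was not tested.

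Among 14 further glycolytic and pyruvate genes, mostly germline paralogs, 6 were called lower and none higher, against 11.5% and 9.38% of all genes. Without WT replicate 1 only 3 were called lower, against 7.65% of all genes. The spermatid markers, 10 of 14 called lower, summed to 18027 and 17481 CPM in WT against 11763 and 12643 in sws1, and their part in these calls was not tested. CG9961, a paralog of phosphoglycerate kinase, was lower by a log2 fold change of -0.61 ± 0.13. Of the genes outside the naming rule, chosen after their values were seen, CG7362, a pyruvate kinase paralog, had 2333 and 1323 counts in WT against 953 and 895 in sws1, a log2 fold change of -0.47 ± 0.10, the opposite sign to PyK. With its 5 paralogs added, PyK contributed little to its step: the paralogs held 96.8% and 97.2% of the length-scaled pyruvate kinase counts in WT and 94.9% and 94.3% in sws1. Likewise CG7024 had 780 and 436 counts in WT against 313 and 283 in sws1, a log2 fold change of -0.51 ± 0.13, and held 86.8% and 87.1% of the alpha subunit in WT and 75.2% and 78.6% in sws1. Without WT replicate 1 the call of CG7024 was lost (edgeR adjusted p of 0.0531), whereas CG9961 and CG7362 kept theirs without each library in turn.

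Among 22 further TCA cycle and shuttle genes, 6 were called lower and 4 higher, against 11.5% and 9.38% of all genes, beside the same fall in the summed spermatid markers, whose part in the lower calls was not tested. Without WT replicate 1 or without sws1 replicate 2 the higher ones were 2. CG14740, a citrate synthase paralog, had 2954 and 1717 counts in WT against 1132 and 944 in sws1, a log2 fold change of -0.66 ± 0.10. It held 96.6% and 95.8% of the length-scaled citrate synthase counts in WT and 96.1% and 94.5% in sws1. The canonical kdn and CG14740 together thus went from 449 and 439 CPM per kb to 294 and 272. The other lower genes, outside the naming rule, were CG33791 (log2 fold change -0.55 ± 0.12), sea (-0.50 ± 0.16), SdhCL (-0.47 ± 0.11), Got2 (-0.43 ± 0.11) and Scsalpha2 (-0.40 ± 0.10). DESeq2 did not call sea. The glutamate dehydrogenase paralog bb8 was not called, at 309 and 285 CPM per kb in WT and 236 and 265 in sws1. The higher genes were CG1544, Irp-1B, ATPCL and Gdh. CG1544, an oxoglutarate dehydrogenase paralog, had only 6 and 5 counts in WT against 11 and 15 in sws1 (log2 fold change 1.71 ± 0.52). Irp-1B, a cytosolic aconitase, rose by a log2 fold change of 0.80 ± 0.19. ATPCL, the ATP citrate lyase that supplies acetyl-CoA for lipid synthesis, rose by 0.79 ± 0.15. Gdh, a glutamate dehydrogenase outside the naming rule, rose by 0.51 ± 0.15. The call of CG1544 was lost without any one of the 4, with edgeR adjusted p between 0.0527 (without sws1 replicate 1) and 0.294 (without WT replicate 1). Gdh kept its call only without sws1 replicate 1, and its edgeR adjusted p was 0.0747 without WT replicate 1, 0.0706 without WT replicate 2 and 0.0826 without sws1 replicate 2. Irp-1B and ATPCL kept theirs in all 4, but with DESeq2 only ATPCL was called among these 4 genes.

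Copies of an enzyme or subunit were added up into 16 step totals. These cover a chosen set of steps and not every listed enzyme. The NAD-dependent isocitrate dehydrogenase has no total, and SdhD counts as a total by itself. The aconitase total holds mAcon1 and mAcon2 without Irp-1A and Irp-1B. Of the 16 totals, 10 were lower in both sws1 libraries than in both WT libraries, 1 was higher and 5 overlapped. Of all single genes tested, 28.9% were lower and 31.3% higher in this way, and no such share was computed for totals of several genes. Many totals include germline paralogs, and the part of the fall in the summed spermatid markers in them was not tested. Totals went from 311 and 299 to 208 and 230.4 CPM per kb for the aldolases and from 756 and 769 to 616 and 656 for the pyruvate kinases, without overlap, and each had an exact two-sided permutation p of 0.333. The fumarases together were at 409 and 438 CPM per kb in WT and 416 and 403 in sws1, and the aconitases at 55.8 and 86.2 against 69.5 and 71.4, both with overlap. The total that was higher was glyceraldehyde-3-phosphate dehydrogenase, from 203 and 189 to 227 and 221 CPM per kb, also with an exact two-sided permutation p of 0.333.

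**Figure D4:**
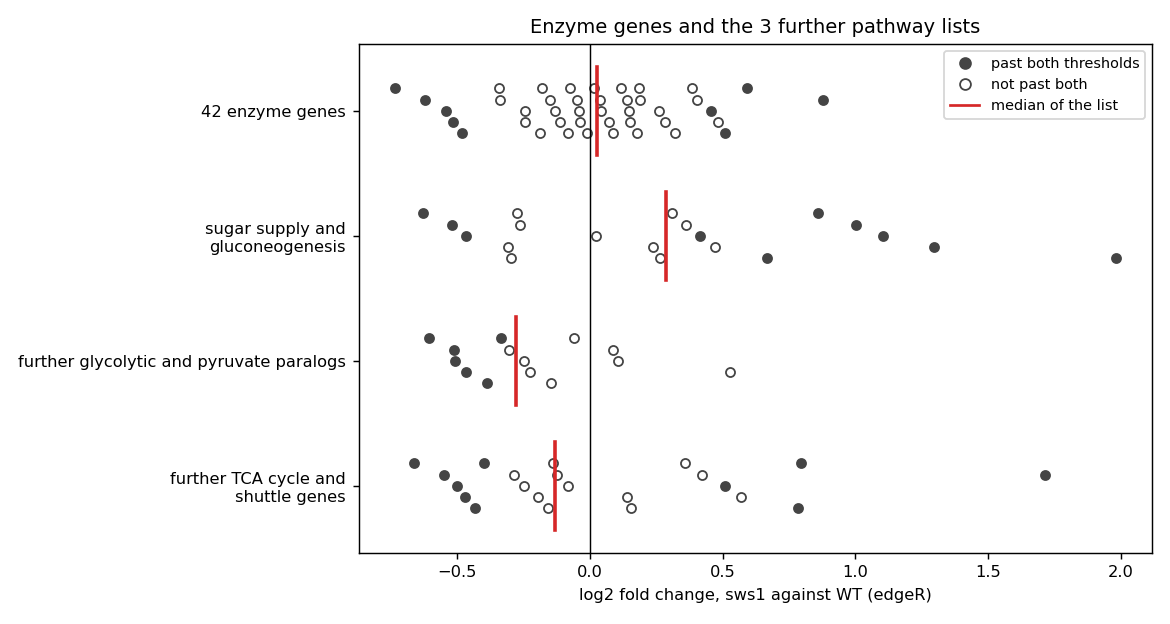
Log2 fold changes, sws1 against WT, of the 42 enzyme genes and of the tested genes on the 3 further lists. Filled circles are past both thresholds and the red bar is the list's median. The 42 genes are spread around 0 with 5 lower and 4 higher calls, and the further glycolytic and pyruvate paralogs have 6 lower and no higher call.

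Since the deposited values are counts of single transcripts, the transcripts within each gene were also compared, in an analysis chosen after the values were seen. Of the members, 12 had counts on a single transcript, and of the 30 with several transcripts and at least 50 counts in every library, 28 had the same leading transcript in all 4 libraries. Of 82 member transcripts tested, 23 had an unadjusted p under 0.05 (28.0%, against 17.1% of all transcripts tested), and none passed after adjustment. How reads in exons common to several transcripts were assigned is not given in the sources used here, and the changes below are therefore given as values only.

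The most divided gene was kdn, whose total was not called. Its transcript FBtr0070906 (X, 6350629 to 6361323, forward strand, 1566 coding bases) had 133 and 126 counts in WT against 25 and 20 in sws1. The other transcript, FBtr0070907, starts at 6352282 and has 1392 coding bases, with 50 and 8 counts in WT against 57 and 77 in sws1. FBtr0070906 thus made up 72.7% and 94.0% of kdn in WT and 30.5% and 20.6% in sws1, and the leading transcript changed between the genotypes.

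In Pgi, whose 3 transcripts have the same 1674 coding bases, FBtr0088681 had no count in either WT library and 124 and 101 in sws1. Against a floor of 3 counts in each WT library it was at least 49.8-fold higher in sws1, with an edgeR adjusted p of 0.0994 over all transcripts. The leading transcript FBtr0088679 made up 79.8% and 70.3% of Pgi in WT and 51.8% and 50.7% in sws1, while the gene total overlapped between the genotypes. In Eno, FBtr0077906 made up 32.0% and 35.4% in WT and 17.8% and 18.6% in sws1.

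Most Idh3b counts lay on FBtr0300788, with 2382 and 1441 counts in WT against 928 and 802 in sws1, while FBtr0084190, with the same number of coding bases (1110), had 136 and 113 in WT and 137 and 111 in sws1. The share of FBtr0084190 was 5.40% and 7.27% in WT and 12.9% and 12.2% in sws1. In Idh, the leading transcript FBtr0076671 was at 55.3% and 56.0% in WT and 54.9% and 56.1% in sws1, while FBtr0333058 went from 8.86% and 8.70% to 4.08% and 3.98%. In Tpi, FBtr0085582 went from 73.5% and 79.3% to 63.3% and 64.6%.

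**Figure D5:**
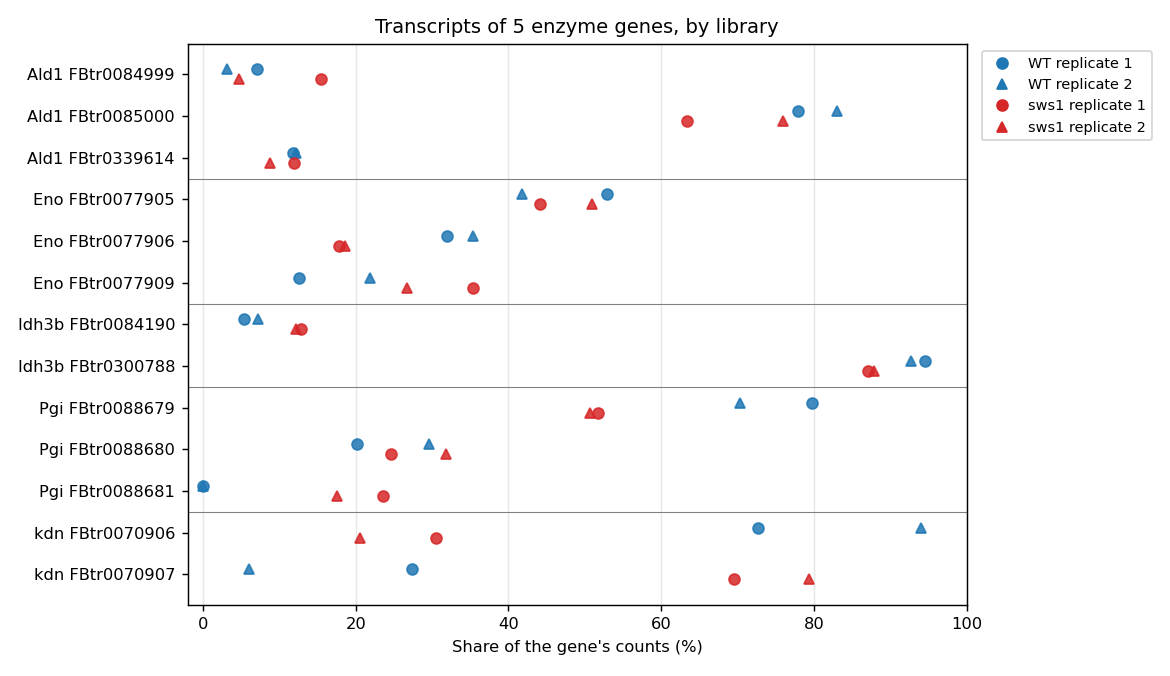
Share of a gene's counts on each transcript in each library, in percent, for 5 enzyme genes chosen after the values were seen and for transcripts that reach at least 10% in a library. Circles and triangles are replicates 1 and 2, blue is WT and red is sws1. FBtr0070906 of kdn is at 72.7% and 94.0% in WT and at 30.5% and 20.6% in sws1.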

How the data were processed

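Pooled testes of 5-day-old flies, with 2 WT and 2 sws1 libraries, were sequenced with a directional kit in paired-end mode. The submitters' processing notes name Trimmomatic, HISAT2 and HTSeq, and the values deposited by the authors are whole-number read counts per transcript, without normalization. The reference release, the strand setting of the counting and the assignment of reads shared by transcripts are not given in the sources used here. No authors' comparison was used, and 0 sample columns were left unmapped.

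Transcripts were matched by FlyBase identifier to the BDGP6.54 gene models of Ensembl release 115, 10 of 29939 did not match, and counts were summed per gene. The 42 members and all lists (144 of 145 listed genes matched) were chosen with earlier results of these data known. Every member is accounted for, and of the further lists at most the 12 called genes with the largest absolute log2 fold change are named by rule.

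Genes were tested with edgeR 4.0.16 (filterByExpr, TMM, quasi-likelihood fit on genotype; R 4.3.3), with Benjamini-Hochberg adjustment over the 9634 genes tested. A call needs an adjusted p under 0.05 and an absolute log2 fold change above 0.3, the thresholds of the study's methods. The study used DESeq2, here 1.42.0 and an alternative. Other alternatives were DESeq2 size factors, upper-quartile factors, no low-count filter, the replicate number as a block, a floor of 10 counts per library, each library left out, single transcripts and other lengths for shares. The scripts were tested on simulated data. Replicates differed by more than sampling noise, with a chi-square per degree of freedom of 3.24 in WT and 3.80 in sws1. With 2 libraries per genotype, the biological coefficient of variation was 0.106. The bounds against 3 counts cover counting error only.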

Additional observations from a re-analysis of the deposited data

How the results depend on the processing

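The 5 lower calls among the members held in 10 of 11 alternatives each, and leaving out a library gave 5 to 6. With single transcripts 0 members were called in either direction, since no transcript passed there. The 4 higher calls became 1 with DESeq2, 2 with DESeq2 size factors in edgeR and 7 with upper-quartile factors, and 1 to 4 with a library left out. In the sugar supply list the 7 higher calls became 4 with DESeq2 and 4 to 6 with a library left out. In the further TCA cycle list the 4 higher calls became 1 with DESeq2 and 2 to 3 with a library left out. In the further glycolytic list the 6 lower calls became 3 to 6 with a library left out, and 4 with DESeq2. With upper-quartile factors the lower calls of the further glycolytic list were also 4. The shares called over all genes differed between settings too. They were 5.79% lower and 3.33% higher with DESeq2, and 12% and 8.96% with DESeq2 size factors in edgeR. Upper-quartile factors gave 9.74% and 11.5%, against 11.5% and 9.38% in the main fit. The replicate number, taken as a block, gave 5 lower and 3 higher calls among the members (12% and 9.88% of all genes). Same-numbered libraries did not deviate together (correlation -0.0077), so the numbers were not taken to pair the samples, and the block gained Hex-t1 and lost Hex-C and Ldh.

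Testis paralog shares in WT depended on the length used. With transcript lengths the share was 87.5% for hexokinase and 33.0% for aldolase, and with raw counts it was 77.6% for hexokinase, 35.3% for aldolase, 70.7% for aconitase, 43.5% for SdhAL and 83.9% for SdhBL. With CG7059 added, the phosphoglycerate mutase share was 95.0%.

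The log2 fold change changed sign for members near 0, none of which was called. With upper-quartile factors it was 0.0398 for Gapdh1, 0.0021 for SdhA, 0.0131 for SdhAL and 0.0106 for Fum2, and with DESeq2 it was -0.0021 for SdhB. With single transcripts the value is that of the gene's most-counted transcript, at -0.0172 for Scsalpha1, -0.82 for Fum1 and 0.0488 for Mdh1. The other Fum1 transcript, FBtr0070954, was at 1.94. For the gene total of Fum1 the log2 fold change was 0.15. With a library left out it ranged from -0.22 to 0.0414 for Pgi, -0.10 to 0.0685 for Gapdh1, -0.27 to 0.17 for Pgk, -0.47 to 0.21 for mAcon2, -0.27 to 0.14 for SdhA, -0.11 to 0.0317 for SdhAL, -0.0077 to 0.0361 for SdhB, -0.0683 to 0.40 for SdhBL, -0.11 to 0.33 for SdhC, -0.0581 to 0.13 for SdhD, -0.0710 to 0.31 for Scsalpha1, -0.0777 to 0.34 for Fum1, -0.17 to 0.0734 for Fum2 and -0.14 to 0.20 for Mdh2. The causes were not tested. Where a library was left out, the lone library of its genotype was assumed to vary like the other group. Depth limits Hex-C, CG1544 and fbp, which have under 50 counts in every library.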
